A study of Mus musculus with 6 samples.

Results

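DNA replication genes were examined in the liver of mice given trichloroethylene (TCE), a chlorinated solvent. The set held 47 genes that load the replicative helicase, build and drive the replication fork, supply deoxynucleotides, assemble chromatin on the new strands or encode E2F transcription factors. Members were found by gene symbol among the probes of the array, and all 47 were present, with 62 of the 55681 probes that are not controls. The samples were livers of 6 male B6C3F1 mice aged 7 weeks, an F1 hybrid strain. Control mice (n = 3) received corn oil by gavage once a day for 5 days, and TCE mice (n = 3) received 1000 mg/kg b.w. TCE, dissolved in that oil, on the same schedule. Each liver was hybridized to a 1-colour microarray of its own, and all values below are quantile-normalized log2 signals. Probes counted as detected stood well above background in every mouse of the control group, of the TCE group or of both. By that rule 42 of the 47 members were detected, through 47 probes, among 13284 detected genes in the series. The series covers males, 1 dose and 1 time point.

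Replication starts from sites that are licensed before S phase, when the origin recognition complex (ORC), Cdc6 and Cdt1 load the ring of Mcm2 to Mcm7 onto DNA. The ring becomes an active helicase with Cdc45 and the GINS complex, after which primase, polymerases, the sliding clamp Pcna and its loader copy the strands. Many of these genes are switched on by E2F factors late in G1, and in the adult liver, where most hepatocytes rest outside the cell cycle, they are known to rise when hepatocytes are driven to divide. Since whole liver was measured, more cells of a dividing kind and more RNA per cell cannot be told apart.

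E2F factors bind short GC-rich sites close to the start of many of these genes. Promoter windows from RefSeq (GRCm38.p6, 250 bases before to 50 bases after the start used in that table) matched 39 of the 47 members, and Gmnn, Mcm4, Gins1, Gins2, Gins4, Prim2, Pole and Rfc2 had none. Both strands were searched for the 4 words TTTCCCGC, TTTGGCGC, TTTCGCGC and TTTGCCGC, which can overlap one another where a site is nearly a palindrome. At least 1 of the words was in the window of 15 of the 39 members (38.5%) and of 704 of 27025 genes in the table (2.60%). The stretches shown here surround copies upstream of the start in 3 members that were higher in all TCE mice (Mcm5, Mcm6 and Rfc3) and in 2 that were not (Gins3 and E2f7). They are written 5′ to 3′ on the strand of the gene, with the matches in capitals.
Mcm5, chr8:75109336-75109387, plus strand: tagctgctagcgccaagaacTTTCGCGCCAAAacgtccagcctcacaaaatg
Mcm6, chr1:128359725-128359835, minus strand: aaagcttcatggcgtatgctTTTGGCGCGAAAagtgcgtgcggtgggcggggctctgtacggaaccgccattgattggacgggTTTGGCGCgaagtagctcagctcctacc
Rfc3, chr5:151651209-151651238, minus strand: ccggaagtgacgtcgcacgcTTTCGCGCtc
Gins3, chr8:95633498-95633545, plus strand: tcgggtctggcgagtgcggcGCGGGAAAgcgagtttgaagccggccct
E2f7, chr10:110745221-110745268, plus strand: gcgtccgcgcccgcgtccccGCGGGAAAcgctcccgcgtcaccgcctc
In Mcm5 and in the outer site of Mcm6, matches on both strands overlapped and formed 1 run of capitals. Of the 16 detected members with a window whose 3 TCE values all lay above the 3 control values, 5 held a word (31.2%), against 7 of the other 18 (38.9%). The median log2 change was 0.33 in the 12 detected members with a word and 0.37 in the 22 without. A match is a string of letters and does not show that a factor was bound.

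Most replication genes had a higher mean in TCE mice, by small amounts. The mean was higher in 38 of the 42 detected members and lower in 4, Mcm10, Tk1, E2f7 and Rpa1. The median log2 change, TCE minus control, was 0.38 over the members and 0.02 over all detected genes, of which 53.1% had a higher mean in TCE mice. A change of 0.38 or more, the median of the members, was seen in 13.1% of all detected genes. All 3 TCE values lay above all 3 control values in 22 members (52.4%), which was the case in 17.1% of all detected genes. All 3 TCE values lay below the controls in 2 members, Mcm10 and Tk1, against 10.8% of all detected genes, and the groups overlapped in the other 18. Groups were tested with limma, which fits each probe and shares information on the spread among them, with Benjamini-Hochberg adjustment over all detected probes. The threshold was a fold change of at least 2 with an adjusted p of at most 0.05. Past it, 1 member was higher, the histone chaperone gene Asf1b, against 1.44% of all detected genes, and 0 members were lower, against 0.489%. Without adjustment, 18 members had a limma p under 0.05 and a higher mean, against 12.0% of all detected genes, and 1, Mcm10, had a lower one, against 7.11%. Most differences in mean were below 2-fold: 34 members had a log2 change between 0 and 1, and 4 (Mcm5, Asf1b, Chaf1a and Gins2) had one of 1 or more. With 3 mice per group, an exact permutation test of a single gene (two-sided, 20 regroupings) cannot give a p below 0.1, which is the value for each of the members whose groups did not overlap.

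**Figure D1:**
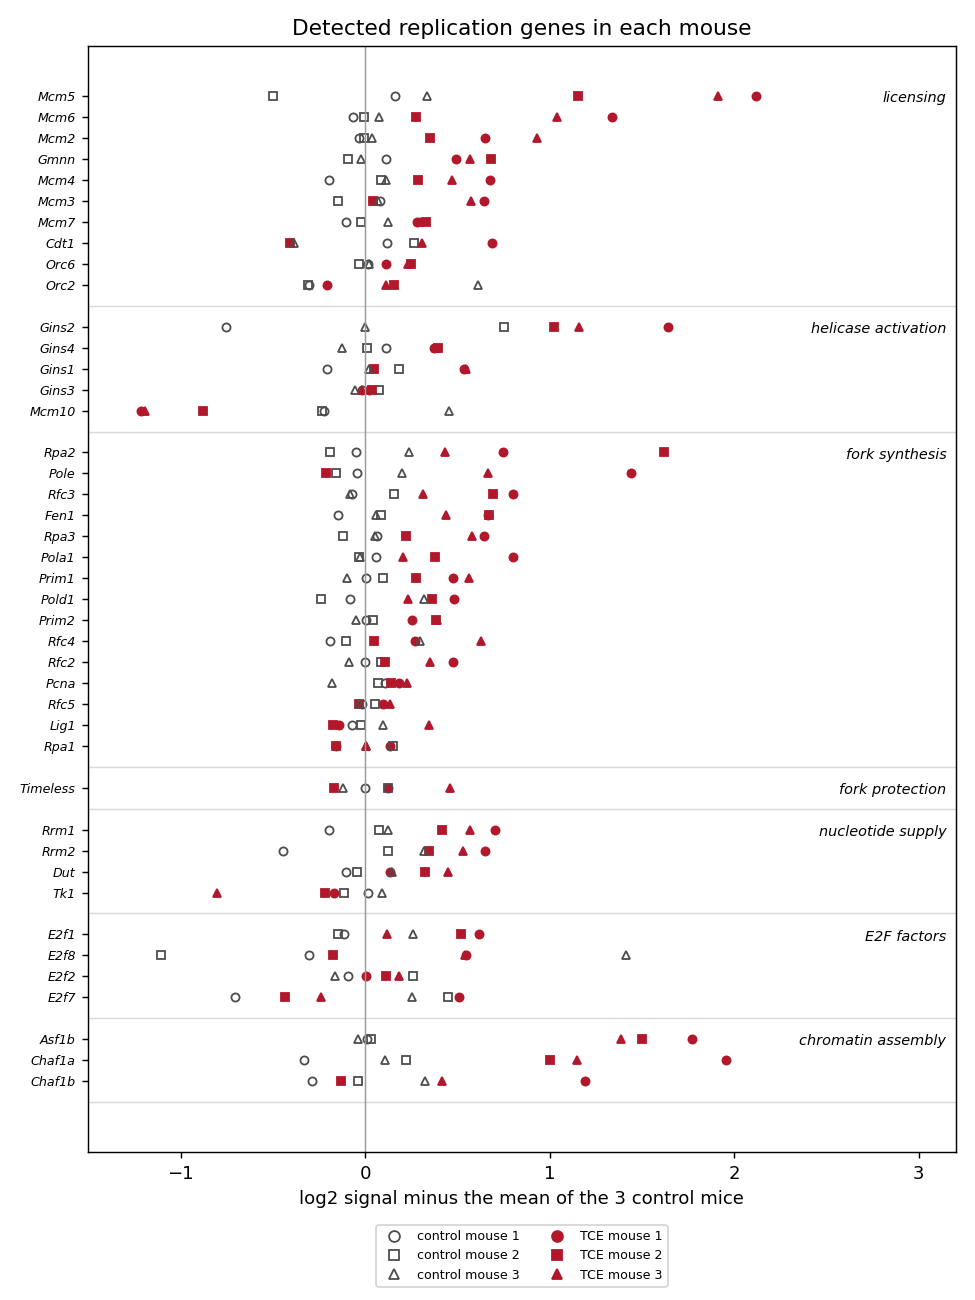
Log2 signal of each detected replication gene in each mouse, minus the mean of the 3 control mice of that gene (horizontal axis), with genes grouped by role and ordered within a role by their change. Open symbols are control mice and filled symbols TCE mice, and most filled symbols lie to the right of 0, apart from Mcm10 and Tk1, where all 3 lie to the left.

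**Figure D2:**
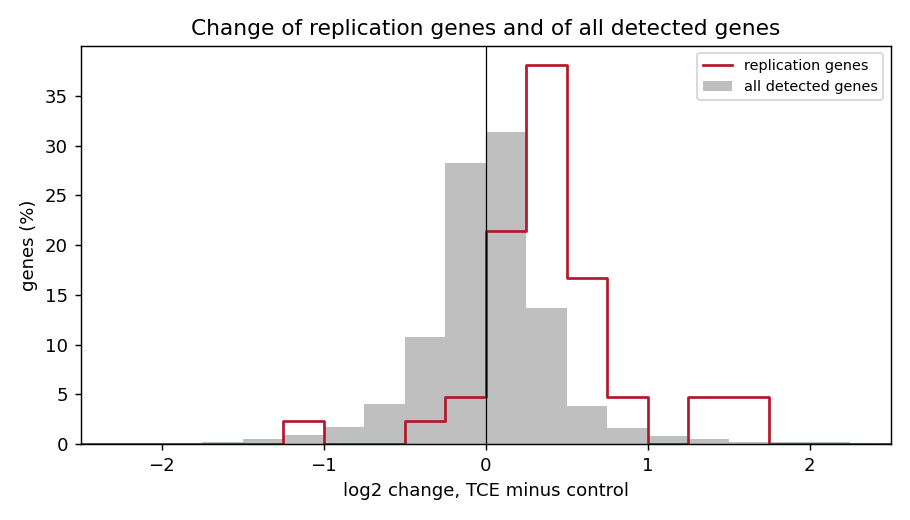
Share of genes (vertical axis, percent) by log2 change, TCE minus control (horizontal axis, in bins of 0.25), for all detected genes as grey bars and for the 42 detected replication genes as a red line. The replication genes peak between 0.25 and 0.5, with a median of 0.38, while all genes centre near 0.02.

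The licensing genes all had higher means in TCE mice, with the largest differences in the ring genes Mcm5, Mcm6 and Mcm2. Of 12 licensing genes 10 were detected, with a median log2 change of 0.45. In 7 of them all TCE values lay above the controls, against 17.1% of all detected genes. An unadjusted limma p under 0.05 with a higher mean was found in 6, against 12.0%. Past the threshold were 0, which with 10 genes is near the 1.44% of all detected genes. Mcm5, a subunit of the ring, had the largest change of all members. Its log2 signal was 5.996, 5.33 and 6.17 in control mice 1, 2 and 3 and 7.95, 6.99 and 7.74 in TCE mice 1, 2 and 3, so that every TCE mouse lay above every control mouse. The log2 change was 1.73 (SE 0.32), or 3.31-fold, and the limma adjusted p of 0.0600 missed the threshold. Mcm6, another ring subunit, was even in controls (10.22, 10.28 and 10.36) and spread in TCE mice (11.63, 10.57 and 11.33), a log2 change of 0.89 (limma adjusted p = 0.168). TCE mouse 2 lay closest to the controls in both genes. Without TCE mouse 2 the log2 change of Mcm6 was 1.19 with a limma adjusted p of 0.0363, past the threshold.

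The other ring subunits moved less. Mcm2 was 6.03, 6.05 and 6.10 in control mice and 6.71, 6.42 and 6.99 in TCE mice, a log2 change of 0.65 (limma adjusted p = 0.123). Mcm4 was 8.34, 8.62 and 8.65 against 9.21, 8.82 and 9.01, a log2 change of 0.48. Mcm7 was 10.14, 10.22 and 10.37 against 10.52, 10.57 and 10.54, a log2 change of 0.30. The groups did not overlap in these 3 genes. Mcm3 was 8.30, 8.08 and 8.29 against 8.87, 8.27 and 8.80, where TCE mouse 2 fell among the controls, and its second detected probe had a log2 change of 0.34 beside 0.42. Across the ring, 5 of 6 subunits were higher in every TCE mouse, against 17.1% of all detected genes. The log2 changes ran from 0.30 to 1.73 with a median of 0.56, although the products act as a single hexamer.

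The genes that load and restrain the ring varied more. Gmnn encodes geminin, which blocks Cdt1 once S phase has begun, and its signal was 7.67, 7.47 and 7.54 in control mice and 8.05, 8.24 and 8.13 in TCE mice. Its log2 change was 0.58 (SE 0.12, limma adjusted p = 0.0739), and TCE mouse 2 was the highest here. Cdt1, the loading factor that geminin binds, was 8.90, 9.04 and 8.39 against 9.46, 8.37 and 9.09, a log2 change of 0.20 (95% interval -0.56 to 0.95). The groups overlapped, with TCE mouse 2 just below every control mouse and TCE mice 1 and 3 above every control mouse. The ORC genes stayed near the controls: Orc6 had a log2 change of 0.20 without overlap, and Orc2 one of 0.02 (95% interval -0.64 to 0.68). Orc2 was 5.40, 5.40 and 6.32 in control mice and 5.50, 5.86 and 5.82 in TCE mice, so that control mouse 3 exceeded every TCE mouse. The sign for Orc2 turned under percentile scaling, under normexp, another background correction, and when control mouse 1 or 2 or TCE mouse 2 or 3 was left out. Orc1 and Cdc6, the loaders made anew in cycling cells, stayed at background in all 6 mice.

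Among the genes that turn the loaded ring into an active helicase, the members split. Gins2 and Gins4 were higher in all TCE mice, Gins1 and Gins3 overlapped, and Mcm10 was lower in all TCE mice, with a median log2 change of 0.38 over the 5 of 6 detected and of 0.20 when Gins2, dim in control mice, was left out by asking for detection in all 6 mice. Gins4 was 9.80, 9.70 and 9.56 in control mice and 10.06, 10.08 and 10.07 in TCE mice, a log2 change of 0.38 (limma adjusted p = 0.158). Gins2 was 4.03, 5.53 and 4.78 against 6.42, 5.80 and 5.94, and only 1 of the 3 control arrays was well above background, so that its log2 change of 1.28 rests on dim control values. Gins1 had a log2 change of 0.38, with 8.38, 8.77 and 8.61 against 9.12, 8.63 and 9.13 and TCE mouse 2 again among the controls. Gins3 was flat, with 11.40, 11.50 and 11.36 against 11.44, 11.46 and 11.40, a log2 change of 0.01 and a 95% interval of -0.24 to 0.26. The GINS genes therefore ran from 0.01 to 1.28, although the complex holds 1 copy of each product. Cdc45, its partner in the helicase, was above background in 1 TCE mouse and in no control mouse and was not tested.

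Mcm10, an initiation factor that helps to start unwinding, had the opposite direction. Its log2 signal was 14.13, 14.12 and 14.81 in control mice and 13.14, 13.48 and 13.16 in TCE mice, with a gap between the lowest control and the highest TCE mouse. The log2 change was -1.10 (SE 0.22), or 2.14-fold lower, and the limma adjusted p was 0.0738. With normexp background correction, it was -1.16 with a limma adjusted p of 0.0283, past the threshold. The signal of Mcm10 was the highest of the detected members, with a control mean of 14.36, against 11.98 for Rpa1, the next highest. Whether the probe reads Mcm10 RNA alone was not tested. A single probe measured Mcm10, of 60 bases, on chromosome 2 from 4911785 to 4911844 of mm9, and its first 30 bases are shown because the direction rests on that probe.
Mcm10 probe, first 30 bases: gctctcctcacctttagtgtgggtttattt

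The fork genes ranged in log2 change from -0.01 for Rpa1 to 0.93 for Rpa2. All 15 were detected, with a median log2 change of 0.36. The mean was higher in TCE mice in 14, against 53.1% of all detected genes. In 9 all TCE values lay above the controls, against 17.1%. An unadjusted limma p under 0.05 with a higher mean was found in 7, against 12.0%. Past the threshold were 0, which with 15 genes is near the 1.44% of all detected genes. Fen1, the flap nuclease that trims Okazaki fragments, was 9.12, 9.36 and 9.33 in control mice and 9.93, 9.94 and 9.71 in TCE mice, a log2 change of 0.59 (SE 0.13, limma adjusted p = 0.0902). Lig1, the ligase that seals the same fragments, was 9.18, 9.22 and 9.34 against 9.11, 9.08 and 9.59, a log2 change of 0.01 (95% interval -0.40 to 0.42), with 2 TCE mice below and 1 above all controls. Pcna, the sliding clamp, was 11.45, 11.41 and 11.17 against 11.53, 11.49 and 11.57. Every TCE mouse exceeded every control mouse for Pcna, but the log2 change was only 0.18 (95% interval -0.11 to 0.48, limma adjusted p = 0.491).

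The clamp loader differed among its subunits. Rfc3 was 6.28, 6.51 and 6.27 in control mice and 7.15, 7.05 and 6.67 in TCE mice, a log2 change of 0.60 (limma adjusted p = 0.138), with no overlap. Rfc2 also did not overlap, at a log2 change of 0.31, while Rfc5 had one of 0.07 with overlap. Rfc4 was read by 2 detected probes of the same direction and different size, with a log2 change of 0.32 at the brighter probe, where the groups overlapped, and 0.68 at the dimmer one (limma adjusted p = 0.0962), where they did not. The dimmer probe was 6.22, 6.65 and 6.44 in control mice and 7.24, 6.96 and 7.16 in TCE mice.

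Replication protein A (RPA) coats single strands at the fork, and its subunit genes ranged from no difference to the largest of the fork genes. Rpa2 was 6.70, 6.56 and 6.99 in control mice and 7.49, 8.37 and 7.18 in TCE mice, a log2 change of 0.93 (limma adjusted p = 0.201). TCE mouse 2 stood above the other TCE mice here, and without it the change was 0.59. Rpa3 was 10.26, 10.08 and 10.25 against 10.84, 10.42 and 10.78, a log2 change of 0.48 without overlap. Rpa1, the large subunit, was 11.82, 12.13 and 11.98 against 12.11, 11.82 and 11.98, a log2 change of -0.01 (95% interval -0.34 to 0.33), and its second detected probe gave -0.10. The sign for Rpa1 turned when arrays were scaled to their 75th percentile and under normexp background correction.

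Primase and polymerase genes also leaned upward. The primase subunit genes Prim1 and Prim2 and Pola1, the catalytic subunit of polymerase alpha, did not overlap. Prim1 was 8.82, 8.92 and 8.72 in control mice and 9.30, 9.10 and 9.38 in TCE mice, a log2 change of 0.44, and Prim2 had one of 0.34. Pola1 was 6.73, 6.64 and 6.64 against 7.47, 7.05 and 6.88, a log2 change of 0.46. The genes of the replicative polymerases overlapped: Pold1, for the lagging strand, had a log2 change of 0.36, and Pole, for the leading strand, had one of 0.63 (SE 0.40). Pole was 7.05, 6.94 and 7.30 against 8.54, 6.88 and 7.76, with TCE mouse 2 below every control mouse and TCE mouse 1 far above. Timeless, which stabilizes stalled forks, overlapped, with 7.64, 7.76 and 7.52 against 7.77, 7.47 and 8.10 and a log2 change of 0.14 (95% interval -0.30 to 0.58). Clspn, which encodes the fork checkpoint mediator claspin, stayed at background in all 6 mice.

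Of the 5 genes of nucleotide supply 4 were detected, 3 with a higher and 1 with a lower mean in TCE mice. The mean was higher in 53.1% of all detected genes. Past the threshold were 0, which with 4 genes is near the shares of all detected genes (1.44% higher and 0.489% lower). Ribonucleotide reductase makes deoxynucleotides from ribonucleotides, and the genes of both of its subunits were higher in all TCE mice. Rrm1 was 8.35, 8.62 and 8.66 in control mice and 9.25, 8.96 and 9.11 in TCE mice, a log2 change of 0.56 (limma adjusted p = 0.117). Rrm2 was 9.27, 9.84 and 10.03 against 10.36, 10.06 and 10.25, a log2 change of 0.51 with a gap of little width, since control mouse 3 lay just under TCE mouse 2. Dut, which removes dUTP, overlapped at a log2 change of 0.31. Tk1, the thymidine kinase of the salvage route, was 11.79, 11.66 and 11.87 in control mice and 11.60, 11.56 and 10.97 in TCE mice. All TCE mice were below the controls for Tk1, most of the distance coming from TCE mouse 3. The log2 change was -0.40 (95% interval -0.87 to 0.07, limma adjusted p = 0.353), and -0.19 without TCE mouse 3. A second detected probe of Tk1 had the same direction, with 9.39, 9.34 and 9.45 against 9.37, 8.64 and 8.34, with TCE mouse 1 among the controls and a log2 change of -0.61 (limma adjusted p = 0.292). Tyms, the thymidylate synthase of the other route to dTMP, was above background on 1 control and 2 TCE arrays and was not tested. Tk2, the mitochondrial thymidine kinase and not one of the 47, had a log2 change of 0.16 with overlap. The median log2 change of the 4 detected nucleotide genes was 0.41, and it was 0.27 without control mouse 1.

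The E2F factors themselves did not separate the groups. All 4 were detected and 0 were free of overlap, while 17.1% of all detected genes lay wholly above the controls and 10.8% wholly below. With only 4 genes, a count of 0 is not far from these shares. The median log2 change was 0.20. That median was 0.10 without control mouse 1, 0.31 without control mouse 3, 0.12 without TCE mouse 3 and 0.07 with normexp. E2f1, an activator of S phase genes, was 7.07, 7.04 and 7.44 in control mice and 7.80, 7.70 and 7.30 in TCE mice, where TCE mouse 3 was below control mouse 3, a log2 change of 0.42 (limma adjusted p = 0.310). E2f2, another activator, had a log2 change of 0.10 (95% interval -0.26 to 0.46). The atypical repressors E2f7 and E2f8 varied widely among control mice. E2f8 was 8.06, 7.25 and 9.78 against 8.91, 8.19 and 8.90, with the highest value in control mouse 3 and a log2 change of 0.30 (95% interval -1.20 to 1.81). E2f7 was 5.75, 6.90 and 6.70 against 6.96, 6.01 and 6.21, a log2 change of -0.05 that turned positive when mouse 2 or mouse 3 of either group was left out.

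Chromatin assembly held the only member past the threshold. Its 3 genes were all detected, with log2 changes of 1.55 for Asf1b, 1.37 for Chaf1a and 0.49 for Chaf1b. Their median of 1.37 is the value of Chaf1a, which counted as detected through the TCE mice only. The 6 other genes of histone supply and chromatin assembly had a median of -0.08, with 4 of the 6 lower in mean. The lower ones included Rbbp4, the small subunit of CAF-1, at -0.16, Nasp, a histone chaperone, at -0.28, and Asf1a, the paralog of Asf1b, at -0.08, all with overlap. The 2 higher in mean were Hat1 and Slbp. Hat1 had a log2 change of 0.58 with every TCE mouse above every control mouse (limma adjusted p = 0.149), and 0.20 with overlap at a dimmer probe. Slbp had one of 0.23 with overlap. Asf1b encodes a histone chaperone of dividing cells that hands histones to chromatin assembly factor 1 (CAF-1). Its log2 signal was 5.88, 5.90 and 5.83 in control mice and 7.64, 7.37 and 7.26 in TCE mice. The control mice were nearly identical, and each TCE mouse was far above them. Asf1b rose by a log2 change of 1.55, or 2.93-fold (SE 0.13 on the log2 scale, limma adjusted p = 0.00574). The call held in all 6 fits with 1 mouse left out (limma adjusted p 0.0183 to 0.0363). With normexp background correction, the log2 change was 0.86 (limma adjusted p = 0.0171), below the required fold change. The probe lies on chromosome 8 from 86493842 to 86493901 of mm9, and the start of its sequence is shown since this is the only member past the threshold.
Asf1b probe, first 30 bases: ttcatgcattctggccccatagagtcatca

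The large and middle subunits of CAF-1 were both higher in mean. Chaf1a was 4.88, 5.43 and 5.32 in control mice and 7.17, 6.21 and 6.36 in TCE mice, a log2 change of 1.37, or 2.58-fold (SE 0.29 on the log2 scale, limma adjusted p = 0.0789). The groups were well apart for Chaf1a, but 1 of the 3 control arrays was not well above background. Chaf1b was 8.21, 8.46 and 8.82 against 9.69, 8.37 and 8.92 and overlapped. Its log2 change was 0.49 (95% interval -0.34 to 1.33), and 0.14 without TCE mouse 1.

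**Figure D3:**
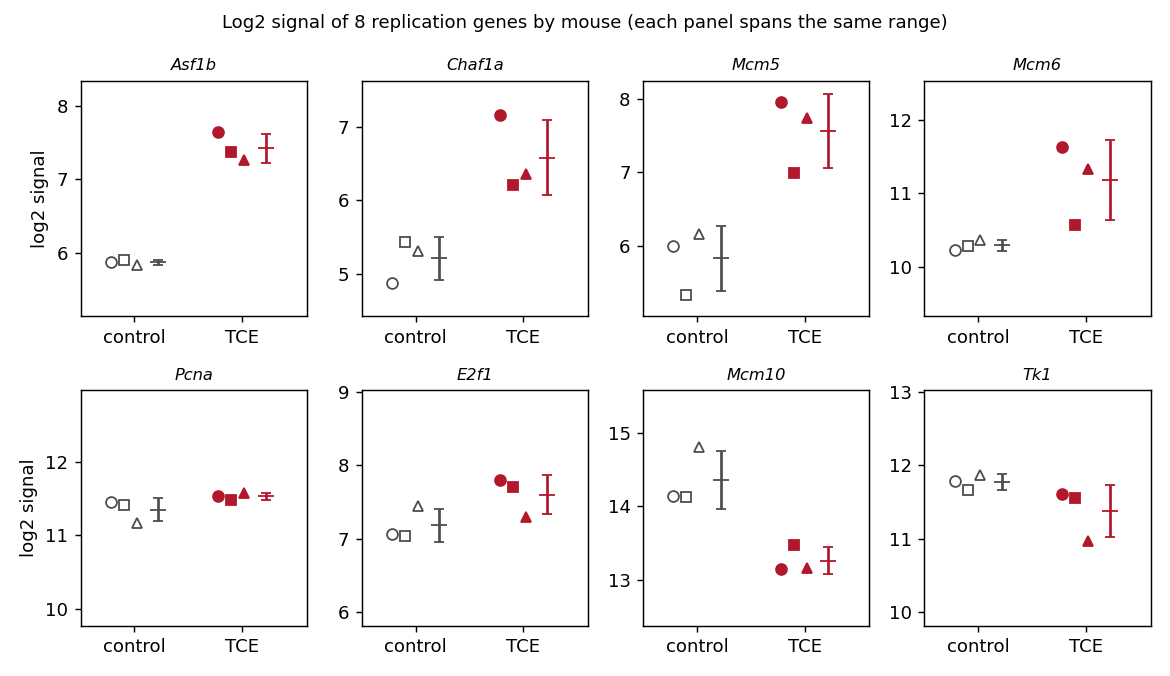
Log2 signal (vertical axis) of 8 replication genes in 3 control mice (open symbols) and 3 TCE mice (filled symbols), 1 point per mouse, with circles, squares and triangles for mice 1, 2 and 3 of each group and the mean with its SD as a bar beside them. Asf1b, Chaf1a, Mcm5 and Mcm6 were higher in every TCE mouse, Pcna by a narrow margin, E2f1 overlapped, and Mcm10 and Tk1 were lower in every TCE mouse.

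The TCE mice differed among themselves in a common direction. TCE mouse 1 was the highest TCE mouse in 22 of the 42 members (52.4%) and in 27.7% of all detected genes, while TCE mouse 2 was the lowest in 24 members. TCE mouse 1 exceeded TCE mouse 2 in 30 members (71.4%) and in 42.2% of all detected genes, so the order among the replication genes was not that of the arrays as a whole. The median over the members, relative to the control mean of each gene, was 0.52, 0.26 and 0.43 in TCE mice 1, 2 and 3 and -0.07, 0.00 and 0.06 in control mice 1, 2 and 3. Each TCE mouse thus lay above each control mouse for the median. Mki67, a marker of cycling cells that belongs to the mitosis genes, did not follow this order, with 8.61, 8.66 and 8.63 in TCE mice and 5.89, 6.37 and 6.30 in control mice. Of 8 listed mitosis and G2 genes, the 5 detected (Mki67, Ccna2, Ccnb1, Cdk1 and Plk1) were all higher past the threshold, against 1.44% of all detected genes. Apart from Mki67, they counted as detected through the TCE mice only, a rule that favours genes higher in TCE mice. The log2 changes were 2.44 for Mki67, 2.58 for Ccna2 and 1.81 for Cdk1, the last 2 with 2 of 3 control arrays above background. Ccnb1 and Plk1, at background in all control mice, were at least 4.04-fold and at least 8.08-fold higher, and Top2a, Aurkb and Bub1 were not detected.

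**Figure D4:**
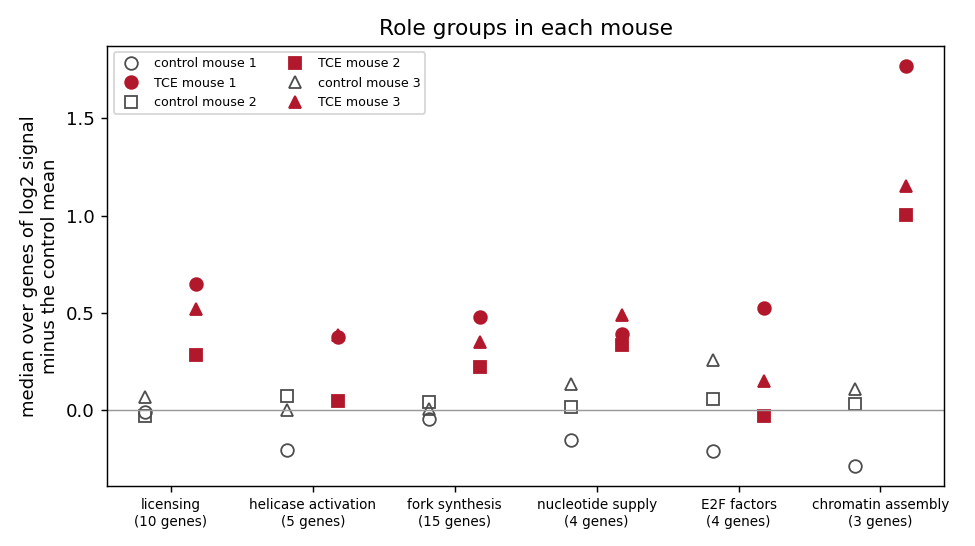
Median over the detected genes of each role (vertical axis, log2 signal minus the control mean of each gene) in each mouse, with open symbols for control and filled symbols for TCE mice. TCE mouse 2 was lowest of the TCE mice for every role drawn, and the groups overlapped for the helicase activation and E2F genes.

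Replication genes outside the 47 lay closer to the controls in median. Of 70 other genes of licensing, fork, nucleotide supply, E2F partners and histone supply, 57 were detected, with a median log2 change of 0.06. The mean was higher in 35 and lower in 22, and it was higher in 53.1% of all detected genes. Without overlap, 12 lay above the controls (21.1%) and 0 below, against 17.1% and 10.8% of all detected genes. By fitted values 1 of the 57 passed the threshold, Chtf18, which encodes a subunit of an alternative clamp loader. Its control values of 3.23, 4.18 and 4.17 were at background in all control mice, its TCE values were 5.70, 5.74 and 5.84, and it was at least 1.96-fold higher (limma adjusted p = 0.0287), a limit just under the required fold change, so that only the fitted fold change passed. That limit sets each control array at its lowest signal well above background, or at the probe's own where higher. By the brightest probe of each gene, the next smallest adjusted p values belonged to Fbxo5, an inhibitor of the anaphase-promoting complex, with a log2 change of 0.70 (limma adjusted p = 0.0536), Lin37 with 0.48, Topbp1, an activator of origin firing, with 0.80, and Lin54 with 0.54. Lin37 and Lin54 belong to the complex that, with E2F partners, holds cell cycle genes silent in resting cells, and both were higher in all 3 TCE mice without passing the threshold (limma adjusted p = 0.106 and 0.132). A dimmer second probe of Nasp, at 7.99, 8.08 and 7.88 in control mice and 7.29, 7.45 and 7.54 in TCE mice, was lower in every TCE mouse with a log2 change of -0.56 (limma adjusted p = 0.0888).

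The tissue and the arrays were checked beside these values. All 8 hepatocyte markers were detected, with a summed linear signal of 1636170 to 1743280 in control mice and 1567580 to 1648830 in TCE mice. Of the lymphocyte markers 4 were detected (summed signal 1889 to 1971 in control and 1365 to 1854 in TCE mice), while Cd3d, Cd8a, Ms4a1 and Ncr1 were not. Of neutrophil markers 3 of 6 were detected (806 to 1381 against 1146 to 1672) while Mpo, Ngp and Ltf were not, and S100a8 was higher in all TCE mice with a log2 change of 1.19 (limma adjusted p = 0.0886). The 4 detected lymphocyte markers were mixed, with log2 changes of 0.65 for the pan-leukocyte gene Ptprc, which was higher in all TCE mice but above background in only 2 of 3 control mice, 0.40 for Cd79a, -0.19 for Nkg7 and -0.63 for Cd3e (limma adjusted p 0.275 to 0.611). The detected probe labelled Cd79a lies on chromosome 12, and another, on chromosome 7, was at background in all mice. Whether the detected probe reads Cd79a RNA was not tested. All 7 Kupffer cell markers were detected (14036 to 15583 against 12646 to 15151), and so were 6 of 6 endothelial markers, whose mean was lower in TCE mice in every case (22940 to 23410 against 12838 to 24948). Of the erythroid markers 5 were detected, and their summed signal was lower in every TCE mouse (147100 to 183698 against 113303 to 134055). Alas2 fell by 0.91 on the log2 scale (limma adjusted p = 0.0215), which is under 2-fold, and Hemgn and Klf1 were lower in all TCE mice without passing (log2 change -0.42 and -0.37). The other 2 detected erythroid markers overlapped and were higher in mean, by a log2 change of 0.10 at most. Of stellate cell and fibroblast markers 5 of 6 were detected, without Des (22775 to 35206 against 25819 to 32641), and Lrat was lower in all TCE mice at a log2 change of -1.35 (limma adjusted p = 0.0676). Reln was lower in mean with overlap (-1.34). Col1a1, Col3a1 and Dcn were higher in mean, also with overlap (0.25, 0.16 and 0.01). Of bile duct markers 3 of 5 were detected, without Krt7 and Epcam (423 to 577 against 357 to 482), all 3 lower in mean with overlap. The part of other cells in the changes of the replication genes was not tested. Between 23538 and 24968 probes were well above background per array and 0 spots were saturated. Control mouse 1 was on a slide of its own and the other 5 mice shared a slide, so that a fit within the shared slide equals leaving out control mouse 1. There, 36 members had a higher mean in TCE mice, the median log2 change of the members was 0.33, and Asf1b remained the only member past the threshold.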

How the data were processed

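Liver RNA of 6 mice was measured on 1-colour microarrays. The authors deposited scanner output from Feature Extraction 10.7.1.1 (named in the submitters' processing notes), with an intensity for each spot after subtraction of background. A second deposited table holds log2 group means after quantile normalization by the authors, which served as an alternative, and the flags of single arrays in 6 columns whose names did not settle the mouse and were not used. Control spots and 123 to 189 spots per array flagged as outliers were left out, replicate spots of a probe were averaged as log2 signals (no pseudocount), and arrays were quantile normalized. Group means computed this way lay within 0.01 of the deposited log2 means for 99.99% of probes and 100% of the member probes. All 22731 detected probes entered a two-sided limma test (limma 3.58.1, R 4.3.3, files read with data.table version 1.17.8) with group as its single term. The brightest detected probe by mean signal stood for a gene, which counted as past the threshold when any detected probe passed.

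The members and lists were chosen with earlier results of these data known. The rule for naming took members past the threshold, the largest and the lowest change of each role, and of other replication genes those past the threshold and the next 4 by adjusted p. Other members were given by mouse after their values were seen. Probe positions are on mm9 and promoter windows on GRCm38.p6, and these were not combined. Alternatives were the 75th percentile, normexp with an offset of 50, other filters, no removal of outlier spots, a block for slide or for replicate number, each mouse left out, the methods' t-test, the deposited means and the mean over probes. On simulated data (5 draws, 22731 probes, 200 changed by a log2 of 2), 92.5% were recovered with 8.8 false calls per draw. The members changed by less (median log2 change 0.38, largest 1.73), and recovery of changes of that size was not measured. The number of arrays limits the precision. Some listed cell type markers are not reported here.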

Additional observations from a re-analysis of the deposited data

How the results depend on the processing

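The count of members past the threshold was 1 higher and 0 lower. It was 0 higher and 1 lower (Mcm10) with normexp, 3 higher (Asf1b, Chaf1a and Mcm5) and 1 lower (Mcm10) by the methods' t-test at its unadjusted threshold, and 0 higher by that t-test after Benjamini-Hochberg adjustment. With 1 mouse left out it was 1 to 2 higher, the second being Mcm6 without TCE mouse 2, and the count at an adjusted p of 0.05 or less was also 1 to 2. With the replicate number as a block both counts of higher members were 0 (limma adjusted p of Asf1b 0.0662). Mice with the same number were not known to be paired, and the correlations of their deviations were 0.09, 0.01 and -0.09 for numbers 1, 2 and 3. The median log2 change of the nucleotide genes was 0.51 without a filter on dim probes, 0.27 with the slide as a block and 0.27 to 0.50 with 1 mouse left out, against 0.41. The median of the E2F genes was 0.10 to 0.31 with 1 mouse left out and 0.07 with normexp, against 0.20, and that of the helicase genes 0.20 with detection required on all 6 arrays, against 0.38. The median of all members was 0.31 to 0.50 with 1 mouse left out, with 36 to 39 members higher in mean. The count without overlap was 22 to 29. Leaving out a mouse can only keep or raise that count, so its range does not measure stability. Signs turned for Orc2 (log2 change -0.023 with the 75th percentile, -0.0031 with normexp, -0.13 with the slide as a block, -0.13 to 0.33 with 1 mouse left out), Rpa1 (0.031 with the 75th percentile, 0.025 with normexp, -0.083 to 0.071 with 1 mouse left out), E2f7 (-0.41 to 0.17 with 1 mouse left out) and Timeless (-0.020 to 0.29 with 1 mouse left out), all of which were near 0. The cause was not tested. Dim probes such as those of Gins2, Chaf1a and Chtf18 have imprecise control values.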
